A study of Homo sapiens with 32 samples.

Results

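The data are crosslinked bases of FLAG-tagged Alyref and of a FLAG-only Control, measured by individual-nucleotide resolution crosslinking and immunoprecipitation (iCLIP). The Alyref and Control libraries were taken as their labels name them, 3 of each, so that 6 of the 12 libraries and 16 of the 32 lane runs of the study are described. In this assay UV light joins protein to RNA in living cells, the complexes are pulled down, and the cDNA made from the RNA tends to end next to the joined base. Each cDNA is a tag, and its place in the genome gives the crosslinked base. The other libraries hold the export factors Chtop and Nxf1.

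The labels give the cell line as HEK293T, an established human embryonic kidney line, with the FlpIn recombination site; the growth notes call the tagged lines FlpIn-293. The Alyref cells expressed Alyref-FLAG from an integrated construct, induced with tetracycline at 10 ng/mL for 48 h. The Control cells carried the empty FLAG construct, and the labels give no induction for them. Both groups went through the same anti-FLAG immunoprecipitation. The Control therefore measures RNA recovered without a tagged protein, the tagged Alyref was present beside the cells' own Alyref, and nothing in the labels says whether the replicates came from separate cultures.

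Alyref is an adaptor subunit of TREX, the complex that is loaded on RNA during transcription and splicing and hands mRNA to the export receptor Nxf1. It is known to bind the cap-binding complex at the 5′ end of RNA and the exon junction complex, which splicing leaves just upstream of exon-exon junctions. The comparison asks which RNAs, and which stretches of them, the Alyref libraries hold beyond the FLAG-only background.

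Some bases recurred in the 3 Alyref libraries and had no tag in the Control. Those shown here were chosen by their tags, so that the counts are a description. Most of those shown lay outside annotated genes, and where all such bases lay was not counted. Each is shown with 10 bases on each side on the strand of the tag, from the GRCh37 genome. The crosslinked base is in capitals.
Outside genes, chr6:27618714-27618734, minus strand: gtccctggatCaaaaccaggc
Outside genes, chr7:149388277-149388297, minus strand: ccccggttcaAatccgggtgc
Outside genes, chr6:27551241-27551261, minus strand: ccggggttcgAttccccgacg
In the lncRNA genes PDE4DIPP4 and ENSG00000290790, chr1:149684110-149684130, minus strand: ctcacacgcgTaaaggtcccc
Outside genes, chr6:28697138-28697158, plus strand: cccgggttcgAcccccggctc
GAS5 exon 1, chr1:173837117-173837137, minus strand: accatactgtCttttcgaggt
The base on top of this set, at chr6:27618724, had 3, 10 and 17 tags in Alyref 1, 2 and 3 and 0 in each Control library. The GAS5 base, the first base of exon 1 of this snoRNA host gene, had 4, 2 and 5 Alyref tags. These counts are small, and a base with 0 Control tags is not shown to be absent from the background, since the Control libraries are shallow.

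The letters GUUCNANNC, which are the T-arm letters of tRNAs, stand in 3 of these 6 windows. They were searched on the strand of the tag after the windows were seen, in every tag outside genes or in several genes. Tags with them came to 6422, 1220 and 1635 per 1000000 nuclear tags in Alyref 1, 2 and 3 and to 2286, 1294 and 1685 in Control 1, 2 and 3. Only Alyref 1 lay above the Control on this scale, so the group as a whole did not. As a share of the tags searched, they made up 2.7%, 1.0% and 1.0% in Alyref and 1.5%, 0.6% and 0.5% in the Control. There the groups overlapped through Control 1, though each Alyref library lay above the Control library of its number.

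The bases with most Control tags are shown for contrast, since they mark the background that both groups carry.
RAPGEF6 intron 7, chr5:130851790-130851810, minus strand: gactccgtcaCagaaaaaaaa
ANKRD30BL intron, chr2:133012617-133012637, minus strand: ccagtctttgGgtttttgggt
Outside genes, chr5:71146731-71146751, plus strand: tagaaatttcTtccagtgcgg
The RAPGEF6 base had 0, 1 and 24 Control tags and 3, 5 and 19 Alyref tags. The ANKRD30BL base had 1, 10 and 11 Control tags and 11, 19 and 18 Alyref tags. Both had tags in all 3 Alyref libraries too, and the RAPGEF6 base was carried by replicate 3 of both groups.

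Depth set how much can be read from single genes. The Alyref libraries held 81133, 630540 and 602486 nuclear tags and the Control libraries 6998, 46384 and 36804. Of these, 62124, 556242 and 507275 Alyref tags and 5963, 36799 and 23169 Control tags lay in a single gene. In what follows, CPM means tags per 1000000 gene tags of a library. A count of 0 allows up to 5.39 to 48.3 CPM in an Alyref library but up to 81.5 to 503 CPM in a Control library. Between 93.7% and 98.9% of the tags of these 6 libraries were alone at their base. Of 12 genes that mark HEK293T cells, 12 had Alyref tags and 8 had Control tags, and of 10 markers of other cell types 5 had Alyref tags and 0 had Control tags. These counts of genes were taken at unequal depth. The HEK293T markers summed to 354.1, 418.9 and 443.5 CPM in Alyref and to 503.1, 706.5 and 474.8 CPM in the Control. Markers of other cells held 4, 19 and 15 Alyref tags, of which COL1A1 held 4, 16 and 10. Alyref mRNA itself carried 0, 26 and 14 tags in the Alyref libraries and 0 in the Control, too few for a test, and the construct cannot be told apart from the endogenous gene. CPM is a share of a library's gene tags. A lower CPM can come from less of an RNA, from less crosslinking of it or from more tags on other RNAs. These cannot be told apart here, and for some RNAs given below CPM also fell as depth rose.

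Alyref tags lay more in exons, and Control tags more in introns. Exonic tags made up 65.0%, 60.2% and 54.4% of the protein-coding tags of Alyref 1, 2 and 3, and 50.6%, 28.3% and 21.6% of those of Control 1, 2 and 3. The lowest Alyref library lay above the highest Control library, by less than the Control libraries differed from each other. The means were 59.9% ± 5.29 (SD, n = 3) and 33.5% ± 15.2 (SD, n = 3), and the difference of 26.4 percentage points had the smallest p this design allows in a two-sided exact permutation test of 3 against 3 libraries (p = 0.1, adjusted p = 0.172 over 50 measures). Counting error was small beside this spread, with 95% Wilson intervals of 49.3% to 52.0% for Control 1 and 54.3% to 54.6% for Alyref 3. Replicates of the same number shared a set of sequencing lanes, and within them the difference was 14.4, 31.9 and 32.8 percentage points.

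Control 1 stood apart from the other Control libraries. It had the fewest tags, the highest exonic share, and 41.8% uridine at the crosslinked base of exonic tags against 48.7% and 49.2% in Control 2 and 3. In Control 1 uridine peaked 2 bases upstream of the assigned base, at 57.2%. Without Control 1 the exonic share differed by 34.9 percentage points. Alyref 1 had the highest share of tags away from genes among the Alyref libraries (10.0% against 4.17% and 6.32%), and Control 3 that among all 6 (16.4%).

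Taken per length, exons carried log2 4.48, 4.24 and 3.91 times the tag density of introns in Alyref 1, 2 and 3 and log2 3.67, 2.06 and 1.67 in the Control. The Alyref values again lay above all Control values, by 1.74 on the log2 scale between the means. Pseudogene tags were also more exonic, with 71.3%, 65.1% and 68.6% against 61.8%, 45.2% and 48.2%. For lncRNA the exonic shares of 45.4%, 51.7% and 45.7% overlapped the Control shares of 51.0%, 44% and 27.8%.

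Among gene classes, the share of protein-coding genes did not separate the groups. Protein-coding genes took 89.2%, 93.3% and 91.6% of Alyref gene tags and 89.8%, 88.7% and 81.5% of Control gene tags, and these ranges overlapped. Another 3 classes, all non-coding, were lower in every Alyref library than in every Control library. The lncRNA share was 6.41%, 5.48% and 6.48% against 6.81%, 7.93% and 11.2%. Small nucleolar RNA genes, whose products guide rRNA modification, held 0.118%, 0.110% and 0.126% against 0.184%, 0.429% and 0.367%. Annotated rRNA genes and their pseudogenes held 0.617%, 0.0841% and 0.137% against 1.24%, 0.709% and 1.62%. In tags, the rRNA class held 383, 468 and 696 in Alyref 1, 2 and 3, which did not follow the 8.95 and 8.17 times higher gene tags of Alyref 2 and 3, so that its share falls with depth, while snoRNA tags rose from 73 to 610 and 641. Each of these had the smallest exact permutation p (p = 0.1, adjusted p = 0.172). Small nuclear RNA genes held 1.28%, 0.231% and 0.374% of Alyref tags and 0.620%, 1.06% and 2.78% of Control tags, so the groups overlapped and Alyref 1 was the exception. Tags within 5 kb past a gene end were fewer in Alyref, with 3.76%, 2.76% and 3.09% against 4.02%, 5.24% and 5.84%. The Control 1 interval here, 3.58% to 4.50%, covers Alyref 1.

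**Figure D1:**
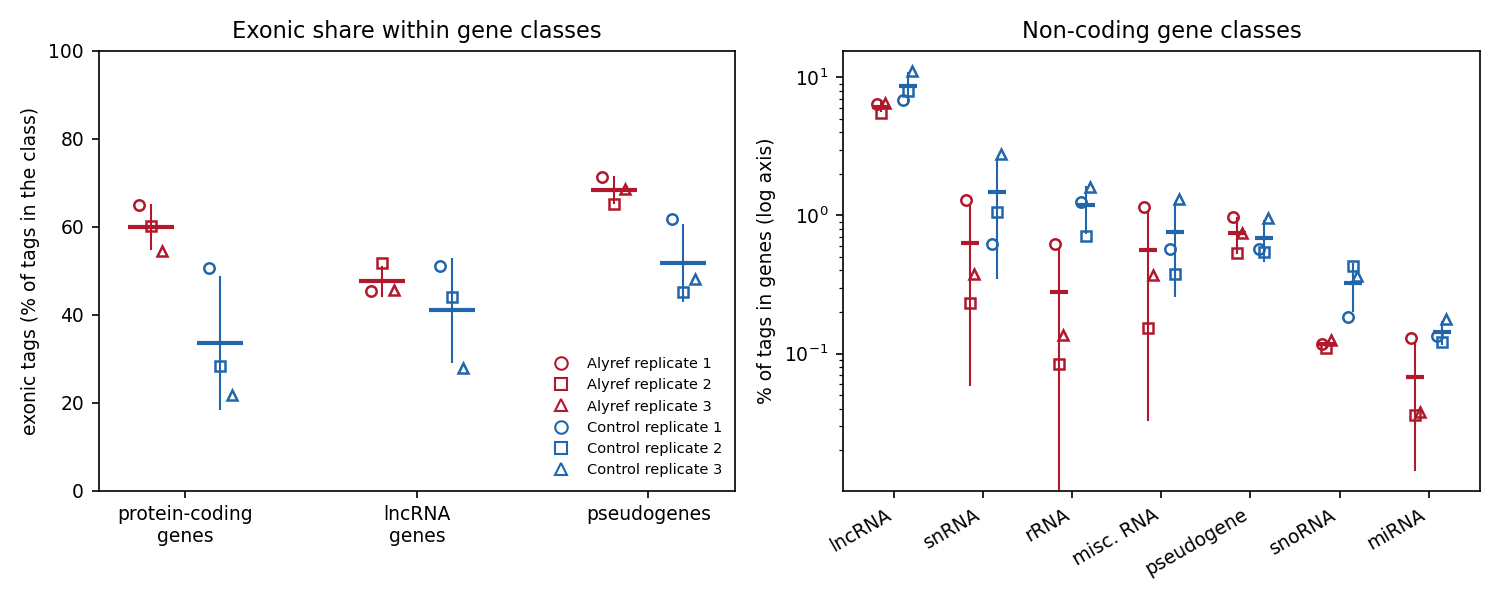
Left, percentage of exonic tags within protein-coding genes, lncRNA genes and pseudogenes. Right, percentage of gene tags in the non-coding classes on a log axis, with 1 point per library, horizontal bars at the group means and vertical lines of 1 SD, cut off where they pass below the axis. The 3 Alyref points for protein-coding genes, 54.4% to 65.0%, sit above the 3 Control points, 21.6% to 50.6%.

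Within spliced genes, Alyref tags were denser on early exons than Control tags. In genes of at least 6 exons, exon 2 held log2 0.73 the density of all exons in each of Alyref 1, 2 and 3, against 0.46, 0.27 and 0.10 in the Control. Exon 1 held 0.66, 0.64 and 0.57 against 0.52, 0.50 and 0.53, and exon 4 held 0.48, 0.45 and 0.41 against 0.30, 0.06 and -0.17. These 3 exons were higher in every Alyref library. For exon 1 the Control values rest on 174, 469 and 206 tags. The last exon held -0.74, -0.83 and -0.71 in Alyref and -0.64, -0.23 and 0.03 in the Control, lower in every Alyref library. Exon 3 and the second last exon overlapped, exon 3 because of Control 1, at 0.71 against 0.68, 0.66 and 0.62 in Alyref. All these values come from the canonical transcript. With the merged exons of all isoforms the difference was 0.03 in place of 0.45 for exon 2 and 0.14 in place of 0.38 for exon 4, and exon 1 and exon 2 overlapped between the groups (exact permutation p = 0.2 and 0.9), so that these differences rest on the transcript model. The last exon stayed apart, at -0.32 in place of -0.48.

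Short exons and spliced genes stood out as well. Internal exons under 100 nt held log2 0.47, 0.45 and 0.46 of the density of all internal exons in Alyref and 0.33, 0.36 and 0.14 in the Control. Internal exons of 500 nt or more held -0.84, -0.87 and -0.82 against -0.72, -0.52 and 0.12. Single-exon genes, histones left out, were log2 -1.85, -2.08 and -1.94 below multi-exon genes in Alyref and -1.50, -1.03 and -0.20 in the Control. In each of the 3 measures the groups did not overlap, and the exact permutation p was 0.1 (adjusted p = 0.172).

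**Figure D2:**
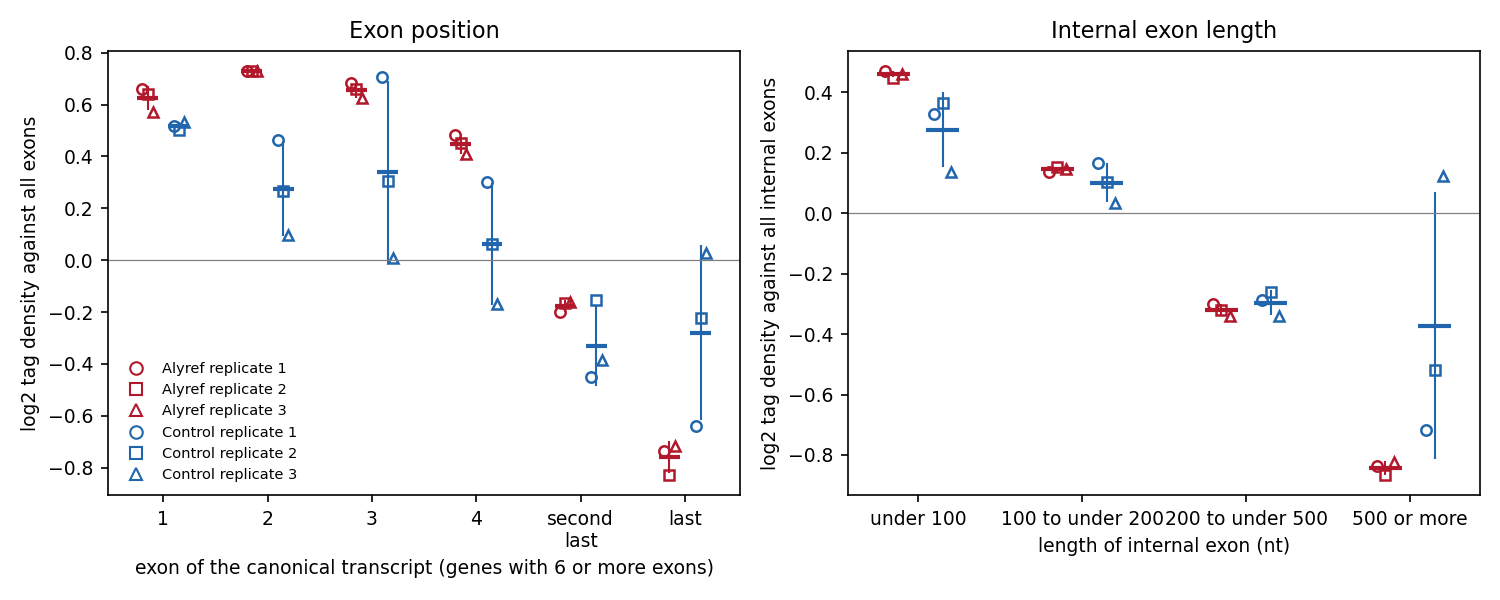
Log2 tag density of exons by position in genes of 6 or more exons (left) and of internal exons by length (right), against all exons and all internal exons; 1 point per library, bars at the group means, lines of 1 SD. Alyref points for exon 2 lie together at 0.73 and for the last exon between -0.83 and -0.71, while the Control points spread more widely.

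Along the spliced transcript the Alyref tags fell off from the 5′ end. The 5′-most of 10 equal stretches held 19.7%, 19.7% and 19.1% of Alyref exon tags and 17.9%, 15.5% and 12.4% of Control exon tags. The second stretch held 14.8%, 14.7% and 14.4% against 14.4%, 11.4% and 10.1%. From there the curves crossed, and stretches 7, 8 and 9 were lower in every Alyref library, by 1.72, 1.61 and 0.991 percentage points between the means. The most 3′ stretch overlapped, at 6.61%, 6.17% and 6.71% against 6.40%, 8.71% and 9.72%. With merged exons of all isoforms, stretches 2 and 7 overlapped between the groups (exact permutation p = 0.4 for each) and stretches 1, 8 and 9 did not. Control 1 followed the Alyref curve more closely than Control 2 and 3 did.

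**Figure D3:**
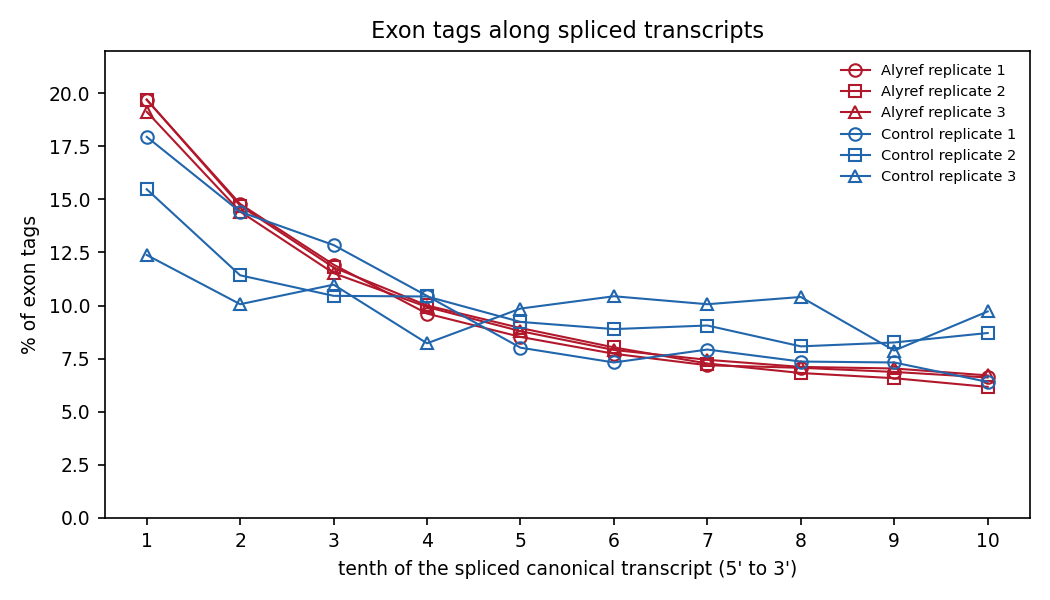
Percentage of exon tags in each of 10 equal stretches of the spliced canonical transcript, from 5′ to 3′, with 1 line per library. The 3 Alyref lines run together from about 19.7% in the first stretch to between 6.17% and 6.71% in the last, and Control 2 and 3 are flatter.

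Intron tags also differed. Last introns held log2 0.18, 0.10 and 0.09 of the density of all introns in Alyref and -0.06, -0.06 and -0.11 in the Control. First introns held -0.26, 0.01 and 0.02 against 0.14, 0.03 and 0.15, so the groups were only just apart. Introns of 1 to 10 kb took 49.6%, 40.9% and 39.2% of Alyref intron tags and 37%, 38.3% and 33.5% of Control intron tags, and introns of 10 to 100 kb took 32%, 38.2% and 39.3% against 40.4%, 40.3% and 44.6%. The first and last 100 nt of introns overlapped between the groups.

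Tested gene by gene, the exonic and intronic parts of genes moved apart. Of 1612 exonic parts tested by edgeR's quasi-likelihood test in all 12 libraries, 382 were higher in Alyref (23.7% of those tested) and 12 were lower (0.744%) at an adjusted p under 0.05. Of 1277 intronic parts, 1 was higher (0.0783%) and 19 were lower (1.49%). The median log2 fold change was 1.70 for exonic and -0.35 for intronic parts, 2.05 apart. The intronic median changed sign with no filter on low counts, to 1.29, and without Control 2, to 0.11, while the exonic median was 1.96 and 2.05 there. Among the 474 genes with both parts tested, the exonic part lay above the intronic part in 470. Of the 382, 381 were protein-coding and 1 was a lncRNA gene.

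The split depends on the scaling. With library size alone in place of TMM factors, the medians moved down to 1.27 and -0.78, still 2.05 apart, and 32 exonic parts were higher and 13 lower, so that 71.1% of exonic calls were higher in place of 97.0%. With the replicate numbers as a block, 347 exonic parts were higher and 23 lower. The count of higher exonic parts rests on every library: it was 34, 0 and 3 without Alyref 1, 2 and 3 and 215, 76 and 0 without Control 1, 2 and 3. Of the 382 parts, 59 had no Control tag and 197 had 1 to 3, so their fold changes are bounded only from below or have wide counting intervals. Such parts passed the filter on low counts through the tagged libraries, where their tags were high. The set tested was thus partly chosen by high tagged counts, and the balance of higher and lower calls carries that choice. Alyref and Control did not overlap for 286 of the 382, beside 603 of all 1612 (37.4%).

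**Figure D4:**
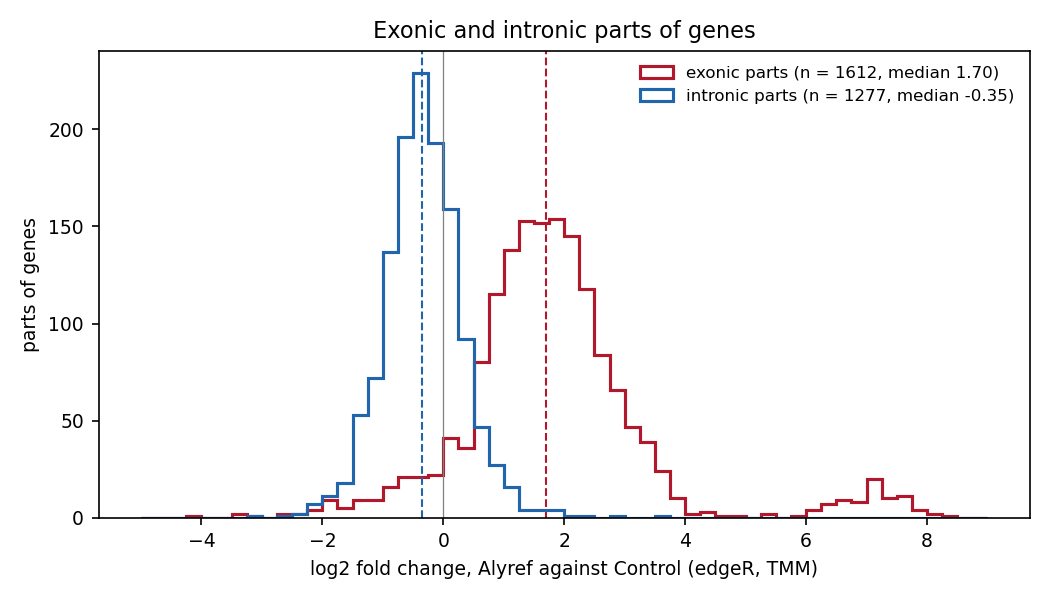
Number of exonic and intronic parts of genes by log2 fold change of Alyref against Control, in steps of 0.25, with dashed lines at the medians of 1.70 and -0.35. The small group of exonic parts above 6 are parts with no Control tag, whose fitted fold change depends on the prior count.

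The 6 exonic parts with the smallest p belonged to genes of 16 to 102 exons. GCN1 (chr12:120565006-120632518, minus strand, 58 exons) encodes a ribosome-bound activator of the Gcn2 kinase, and its exons held 31, 279 and 212 Alyref tags and 1, 0 and 0 Control tags. Alyref 1 to 3 lay at 499, 502 and 418 CPM and the Control at 168, 0 and 0, so the groups were apart. The pooled ratio was 30.6 (95% counting interval 5.46 to 1210), and the edgeR log2 fold change was 5.29 ± 1.00 (SE, adjusted p = 0.0027).

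MDN1 (chr6:90352217-90529513, minus strand, 102 exons), the midasin ATPase of large ribosomal subunit assembly, had the most Control tags of these genes. Its exons held 54, 405 and 313 Alyref tags and 1, 2 and 3 Control tags, with every Alyref library higher in CPM. The edgeR log2 fold change was 3.44 ± 0.76 (SE, adjusted p = 0.008). NUP210, a membrane glycoprotein of the nuclear pore, held 26, 194 and 120 Alyref tags and 1, 0 and 0 Control tags. The trafficking gene LRBA held 21, 202 and 175 against 0, 2 and 0. The mitotic kinesin gene KIF18B, with 21, 118 and 78 Alyref tags, had no Control tag, which makes it at least 4.24-fold higher when a floor of 3 tags is pooled over the Control. XRN2 encodes the nuclear 5′-3′ exonuclease of transcription termination, and its 11, 111 and 98 Alyref tags with none in the Control make it at least 4.29-fold higher. All 4 passed edgeR's test at an adjusted p of 0.008. None of the 6 passed without Alyref 2 or without Control 3.

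The share of parts called rose with the number of exons, and so did the tags behind the test. Among tested protein-coding exonic parts, 0 of 14 with 1 exon were higher, 6 of 121 with 2 to 5, 41 of 245 with 6 to 10, 107 of 510 with 11 to 20, 152 of 470 with 21 to 40, and 75 of 141 with over 40. The median of their summed Alyref tags went from 67 to 262 over the same bins, and the part of these depths in the order was not tested. Over all genes, without a filter or test, exonic CPM of single-exon genes overlapped between the groups (ratio of the means 1.17). For genes of 2 to 5 exons the ratio was 1.47 and for genes of over 40 exons it was 2.34, with every Alyref library above every Control library in each bin from 2 exons up.

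Whole genes, with introns included, separated less. Of 3421 genes tested by edgeR, 0 were higher and 0 lower at an adjusted p under 0.05, with 362 and 188 at an unadjusted p under 0.05, and DESeq2 called 5 and 7. Since replicates of 1 number shared their lanes, the same fit with the number as a block was also read. It called 26 higher (0.76%) and 41 lower (1.2%). The first runs of numbers 1 and 3 carry the same lane name, so the block does not stand for separate lanes alone. Deviations of Alyref and Control libraries of the same number correlated only weakly over these genes, at 0.0442, 0.0210 and 0.112. The block calls are therefore read as an alternative to the main fit. The median log2 fold change of all genes was 0.16. Against the mean of Chtop and Nxf1, 57 genes (1.67%) and 32 exonic parts (1.99%) were higher in Alyref, and 20 of these 32 were among the 382. XRN2 exons were among the 20, with a log2 fold change of 1.71 against the other factors (edgeR adjusted p = 0.0159).

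Genes higher under the block were again protein-coding. SMG1 (chr16:18816182-18937730, minus strand, 63 exons), the kinase that phosphorylates Upf1 in nonsense-mediated decay, held 67, 470 and 436 Alyref tags and 3, 9 and 1 Control tags. All Alyref libraries were higher in CPM, at 1078, 845 and 860 against 503, 245 and 43.2. Its edgeR log2 fold change with the block was 2.29 ± 0.54 (SE, adjusted p = 0.00617) and without it the adjusted p was 0.0595. Named genes with no Control tag were TELO2, which stabilises kinases related to phosphatidylinositol 3-kinase, PSMD11 of the proteasome lid, and CCDC93 of endosomal recycling, at least 3.75-, 3.71- and 3.53-fold higher. Their adjusted p by edgeR was 0.0131, 0.014 and 0.0146 with the block and 0.0595 for each without it. They passed the filter on low counts through the tagged libraries, where their tags were high, and so were partly chosen by those counts. The kinetochore gene KNTC1 held 64, 537 and 508 tags against 3, 15 and 3, and FASN, the fatty acid synthase, 55, 467 and 394 against 1, 9 and 7.

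Gene lists by function or by name were read against the 23.7% of all exonic parts that were higher and the 0.744% that were lower. Summed exonic CPM of all genes were 649600, 600300 and 544700 in Alyref and 521000, 316400 and 275500 in the Control, higher in every Alyref library. A list whose sums are higher in every Alyref library therefore does not stand out from all genes by that. Of 23 genes of TREX and mRNA export, 7 exonic parts were tested and 1 was higher, too few to set the list apart from all exonic parts. Their median log2 fold change was 1.78, beside 1.70 for all exonic parts. The one called was MCM3AP, the scaffold of the TREX-2 complex, with 16, 202 and 166 Alyref tags and 2, 3 and 0 Control tags (edgeR log2 fold change 2.46 ± 0.76, SE, adjusted p = 0.0276). CPM in Alyref 1 lay below Control 1, at 258 against 335. The exons of CHTOP held 4, 55 and 54 tags against 0, 0 and 2 (adjusted p = 0.132 by edgeR) and those of NXF1 8, 89 and 63 against 2, 2 and 0 (adjusted p = 0.16), and neither passed.

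Genes of splicing and of RNA quality control come next. Of 20 genes of the exon junction complex and nonsense-mediated decay, 1 of 6 tested exonic parts was higher, that of SMG1, and the median was 1.44. Of 14 SR protein genes, which encode splicing factors that also act in export, 1 of 11 was higher, SRSF7, and the median was 1.31. Of 24 hnRNP genes, 3 of 16 were higher and the median was 1.55. In all 3 lists the share called lay below the 23.7% of all exonic parts. With 6, 11 and 16 parts tested, these counts are too small to set the lists apart from that share. HNRNPL held 28, 260 and 208 exonic tags against 0, 5 and 2, with all Alyref libraries higher (edgeR log2 fold change 2.55 ± 0.67, SE, adjusted p = 0.0155), and HNRNPA1 and HNRNPH1 passed too.

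Detained-intron transcripts keep some introns in the nucleus that are spliced late. Of 11 tested exonic parts of these 16 genes 4 were higher, with a median of 1.86, beside 23.7% and 1.70 over all exonic parts, and 1 of 4 intronic parts was lower, that of LUC7L, a call lost under the block. RBM39, a splicing factor, held 40, 280 and 258 exonic tags against 1, 8 and 3, and its CPM were 644, 503 and 509 against 168, 217 and 130, so the groups were apart (edgeR log2 fold change 2.09 ± 0.63, SE, adjusted p = 0.025). DDX5, an RNA helicase, and MAT2A, the S-adenosylmethionine synthetase, were called as well, though Control 1 overlapped Alyref in both. TAF1D, a subunit of an RNA polymerase I initiation factor, passed at an adjusted p of 0.0444 in edgeR but not with the block, at 0.0594. The list's summed exonic CPM were 7067, 5550 and 5394 in Alyref and 4863, 2881 and 1036 in the Control.

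Housekeeping lists were mixed. Of 88 cytosolic ribosomal protein genes, 12 exonic parts were tested and 0 passed in either direction by edgeR, with a median of 1.41. Their summed exonic CPM of 3863, 4156 and 3783 against 3354, 2826 and 2633 were apart, as were those of all genes. Of 35 translation factor genes, 1 of 12 was higher, EIF3A, and of 23 chaperone genes 2 of 7 were, HSPA9 and HSP90B1, with medians of 1.84 and 0.78. Glycolytic enzymes and tubulins and actins had 0 of 7 and 0 of 4 called, with medians of 0.64 and 0.37 and summed exonic CPM that overlapped. Of 64 replication-dependent histone genes 1 was tested and did not pass, and their summed CPM of 789, 539 and 552 lay just above the Control's 503, 299 and 518. Of 240 chromosome 19 zinc finger genes, 18 were tested and 2 were higher, ZNF558 and ZNF460, with a median of 1.69.

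**Figure D5:**
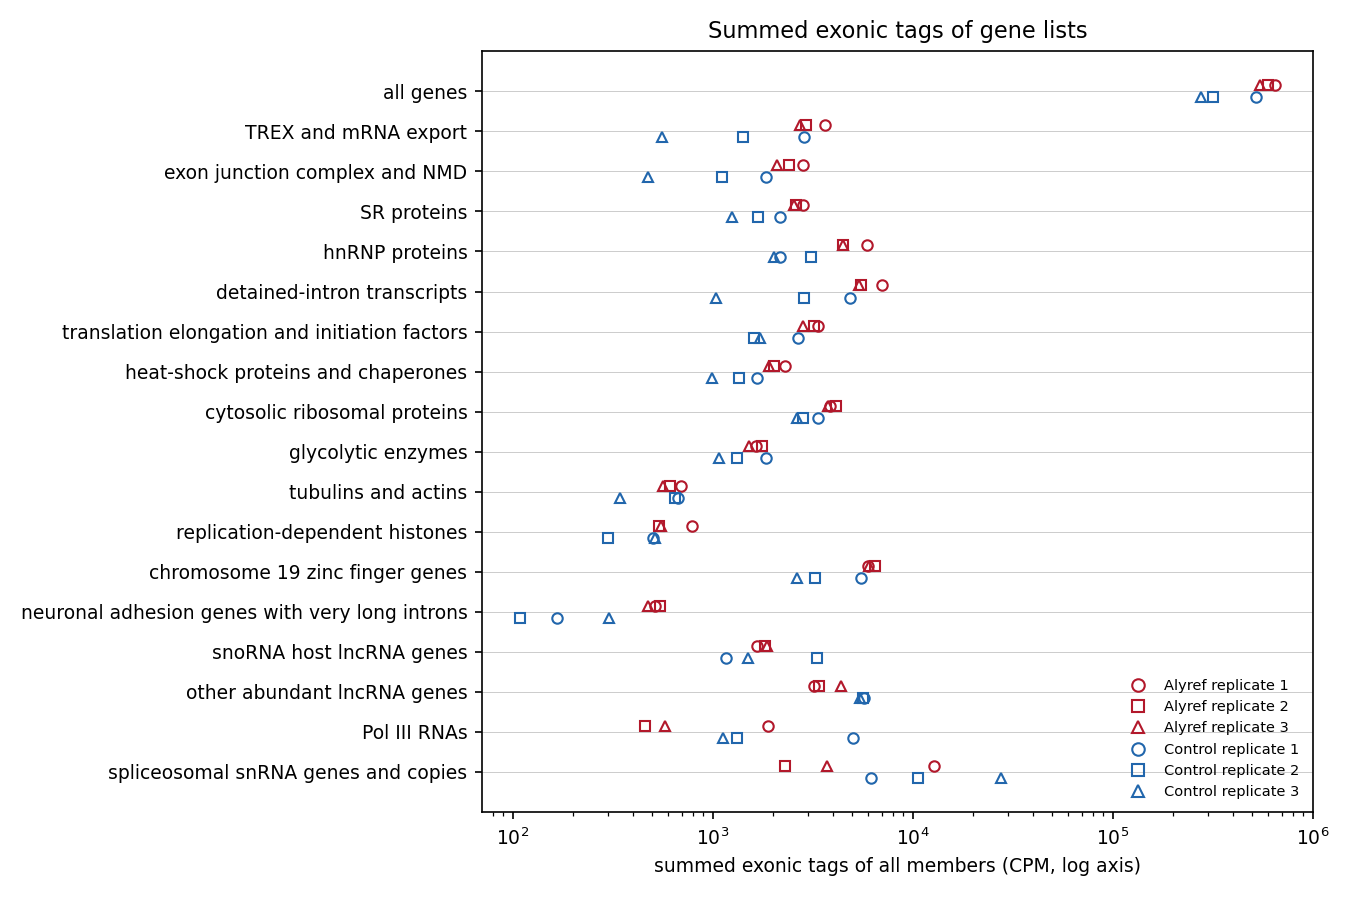
Summed exonic CPM of all members of each gene list on a log axis, 1 point per library. Alyref points lie above all Control points for all genes together and for most lists of protein-coding genes. They lie below them for other abundant lncRNA genes, and the groups overlap for snRNA genes and copies.

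Non-coding RNA lists were lower in part or did not separate. Other abundant lncRNA genes, among them the nuclear RNAs MALAT1 and NEAT1, had summed exonic CPM of 3219, 3396 and 4392 in Alyref and 5702, 5625 and 5438 in the Control, lower in every Alyref library. The median of its 7 tested parts was of the opposite sign, at 0.61 with 4 above 0, and edgeR called 0 of 7. The snoRNA host lncRNA genes overlapped, with a median of -0.17 and 0 of 8 called. MALAT1, which like NEAT1 was picked from this list outside the naming rule, held 80, 511 and 582 Alyref tags and 8, 109 and 61 Control tags, or 1288, 919 and 1147 CPM against 1342, 2962 and 2633, lower in every Alyref library. NEAT1 held 39, 792 and 1077 Alyref tags and 19, 65 and 49 Control tags, or 628, 1424 and 2123 CPM against 3186, 1766 and 2115, and overlapped. Neither passed edgeR's test (adjusted p = 0.523 and 0.894). Of the spliceosomal snRNA genes and copies 30 exonic parts were tested, 8 were lower and 0 higher, beside 0.744% lower and 23.7% higher over all exonic parts, with a median of -1.29, and 12 were lower under the block. All snRNA genes together held 797, 1283 and 1897 tags in Alyref 1, 2 and 3, which again did not follow depth. Of 12 Pol III RNA genes 4 were tested and 0 were called by edgeR, 1 of them lower under the block.

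The lower parts were short RNAs and introns. The 12 lower exonic parts were 8 snRNA genes or copies, 2 rRNA pseudogenes, 1 miRNA gene and the lncRNA gene LINC00910. The snRNA loci RNU1-67P and RNVU1-17 had the smallest p, but their groups overlapped, with 0 tags in Control 1. The groups also overlapped for RNA5-8SP4 and RNU2-64P. RNU1-88P, a copy of the U1 snRNA, held 4, 5 and 6 Alyref tags and 1, 6 and 9 Control tags, so that CPM were 64.4, 8.99 and 11.8 against 168, 163 and 388 (edgeR log2 fold change -3.48 ± 0.91, SE, adjusted p = 0.0155). Its Alyref tags hardly rose with the depth of Alyref 2 and 3, and the part of depth in this call was not tested. Near-identical copies share reads, and which copy such reads came from is uncertain. Under the block the 5.8S rRNA copy RNA5-8SP3 (chr9:111754689-111754849, minus strand) was lower, with 52, 53 and 53 Alyref tags and 13, 50 and 49 Control tags and CPM of 837, 95.3 and 104 against 2180, 1359 and 2115. Its tags did not rise with depth, with 48, 54 and 52 in Chtop as well, so its CPM fell as depth rose and the call is not read as a difference in crosslinking.

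Of the 19 lower intronic parts 18 were in protein-coding genes. TENM1 (chrX:123509753-124338161, minus strand), a teneurin of neuronal contacts with very long introns, held 3, 44 and 48 intronic Alyref tags and 3, 17 and 13 Control tags. The Alyref libraries lay at 48.3, 79.1 and 94.6 CPM and the Control at 503, 462 and 561, apart (edgeR log2 fold change -2.19 ± 0.52, SE, adjusted p = 0.0113). Introns of DDX46, a helicase of the U2 snRNP, held 2, 70 and 43 against 2, 17 and 12, and those of STIL, a centriole assembly gene, 4, 14 and 21 against 1, 11 and 9. RASGEF1B and RBM27 were lower too, and CDH18, whose groups overlapped, had 25 of its 31 Control tags in Control 3. The 1 higher intronic part was that of the netrin gene NTN1, with 8, 78 and 82 tags against 0, 1 and 0 (edgeR adjusted p = 0.0237, and 0.077 with library size alone).

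A list of 26 neuronal adhesion genes with very long introns showed both directions in the same genes, as did all genes summed. The list's summed intronic CPM were 3252, 5215 and 6819 in Alyref and 7379, 7582 and 11310 in the Control, lower in every Alyref library. By edgeR 0 of 16 tested intronic parts passed. Over all genes, summed intronic CPM were 350400, 399700 and 455300 against 479000, 683600 and 724500, also lower in every Alyref library. The list's summed exonic CPM were 515, 545 and 475 against 168, 109 and 302, higher in every Alyref library. These Control sums rest on 12 tags in all. Of 2 tested exonic parts 1 was called, that of LRP1B.

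Single exons and introns did not pass the test. Of 910 tested, edgeR called 0 in either direction, with 206 higher and 16 lower at an unadjusted p under 0.05, and DESeq2 called 0. Among those with the smallest p, RCC2 exon 13 held 14, 95 and 70 Alyref tags and 0 Control tags (edgeR adjusted p = 0.0614), and exons of KIF18B, STX16, AMH, HNRNPA1, C21orf58 and SRCAP and of the lncRNA gene ENSG00000291201 followed at 0.0732. RAPGEF6 intron 7, which holds the Control base shown above, had 3, 10 and 30 Alyref and 0, 1 and 28 Control tags, all but 1 of the Control tags in Control 3.

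The sequence around exonic tags was less rich in uridine in Alyref. The 20 bases around the crosslinked base held 29.2%, 28.5% and 29.0% U in Alyref 1, 2 and 3 and 31.9%, 33.1% and 32.2% in the Control, lower in every Alyref library by 3.49 percentage points between the means, with A, C and G each higher by 1.24, 0.877 and 1.37. At the crosslinked base itself U was higher in Alyref, at 51.7%, 51.0% and 50.9%. Of 747 pentamers found around at least 1% of exonic Alyref tags, 166 were higher in every Alyref library and 72 lower. These pentamers were chosen by their share in Alyref tags alone, so the balance of higher and lower carries that choice. Those with the largest mean log2 ratio, a description only, were UACAG at 0.62, CAAUG at 0.50 and CGGCU at 0.48, and those with the smallest were UUUUU at -0.70, UCUUU at -0.59 and CUUUU at -0.59.

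The 100 genes with most tags took 9.62%, 8.61% and 8.67% of Alyref gene tags and 13.9%, 11.1% and 13.0% of Control gene tags (exact permutation p = 0.1, adjusted p = 0.172). This share fell with depth over the 6 libraries, and no value at equal depth was taken, so it is not read as a difference in spread over genes. Of the 50 library measures compared, 29 were apart in this way, 15 of them higher and 14 lower in Alyref.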

How the data were processed

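The deposited files hold counts, the tags at each crosslinked base and strand. To make them the authors removed phiX reads (bowtie 1.1.2), handled random barcodes with UMI-Tools 0.5.3, trimmed with Reaper, aligned uniquely to hg19 with STAR 2.4.2a, merged runs and collapsed duplicates by barcode, so a tag is 1 cDNA and intervals cover counting error only. Unique mapping leaves copies of repeated RNAs uncertain. Runs of a library counted once, and the mitochondrial chromosome was left out.

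Tags were assigned by strand to GENCODE release 44 mapped to GRCh37, a later annotation than the authors used. A tag went to the only gene with an exon there, else to the only gene. CPM is tags per 1000000 gene tags. Counts were tested with edgeR 4.0.16 in R 4.3.3 (quasi-likelihood, TMM, filterByExpr, all 12 libraries in 1 fit, Benjamini-Hochberg, adjusted p under 0.05) and library measures by two-sided exact permutation (20 splits), adjusted over 50 measures; fits were tested on simulated data. DESeq2 1.42.0, library size alone, no filter, a replicate block, TMMwsp, 6 libraries, positions counted once, merged exons, the top gene of a class left out and leaving out each library were alternatives. Run titles tie each replicate number to a lane set shared by all groups, so the numbers were taken to pair libraries; deviations correlated at 0.0442, 0.0210 and 0.112 over 3421 genes.

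Named genes were the smallest p by part and direction, up to 4 called members a list, and ALYREF, CHTOP and NXF1; whole genes, with 0 called, were named from the block by the same rule. Members and lists were chosen with earlier results of these data known. The number of per-sample columns left unused was 0.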

Additional observations from a re-analysis of the deposited data

How the results depend on the processing

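The exonic share, and every other of the 29 library measures that were apart, kept its direction under all alternatives run. Counts of calls did not hold. For genes, 6 libraries gave 2 lower, DESeq2 5 higher and 7 lower, library size alone 3 and 12, no filter 54 and 9, the replicate block 26 and 41, positions counted once 2 lower, and the block with library size alone 24 and 55, against 0; leaving out 1 library gave 0 to 37 and 0 to 59. For exonic parts, 6 libraries gave 75 higher, DESeq2 33 and 3, library size alone 32, no filter 1931 and 5, the block 23 lower, TMMwsp 175 higher, the block with library size alone 23 and 23, and leaving out 1 library 0 to 215 and 0 to 25. DESeq2 gave no adjusted p for 1443 of the 1612 exonic parts, 313 of them among the 382, and for 2719 genes and 1189 intronic parts. For intronic parts, 6 libraries, library size alone and the block with it gave 0 higher, DESeq2 0 and 8, no filter 87 and 8, positions counted once 11 lower, and leaving out 1 library 0 to 2 and 0 to 28. For single exons and introns, library size alone gave 2 lower, TMMwsp 185 and 2, the block with library size alone 3 lower, and leaving out 1 library 0 to 140 and 0 to 3. The block changed no other count by more than 1.5 times. The difference of the exonic and intronic medians was 0.66 with no filter and 1.78 to 2.31 otherwise.

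With merged exons of all isoforms in place of canonical transcripts, the differences were 0.21 for exon 1, 0.0259 for exon 2, 0.14 for exon 4, -0.18 for the second last exon (reversed), 0.64, 0.49 and 0.0760 for internal exons under 100, of 100 to under 200 and of 200 to under 500 nt (the last reversed), and 0.285 for last introns. Other reversals came from measures that overlapped, when 1 library was left out, with ranges of -0.0533 to 0.192 for the pseudogene share, -0.495 to 0.0847 for miscellaneous RNA, -4.11 to 0.764 for antisense tags, -5.05 to 0.787 for tags away from genes, and -0.168 to 1.03, -0.588 to 0.529 and -0.791 to 0.130 for stretches 3, 4 and 5 of the transcript. The cause of these changes was not tested. TMMwsp and the block with library size alone were chosen after seeing the data. Depth limits single genes, since 0 tags in the 3 Control libraries together allow up to 45.5 CPM.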

Other observations

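Reads that begin exactly at an annotated transcript start leave their tag at the base just before it. Over 18221 start sites of protein-coding genes, Alyref 1, 2 and 3 held 22, 352 and 300 tags at that base, against 14.9, 131 and 105 per base over the first 20 transcribed bases, so that the base before the start held 1.48, 2.68 and 2.85 times as many. Pooled over the Alyref libraries the ratio was 2.68 (95% counting interval 2.47 to 2.91). The Control libraries held 2, 5 and 1 tags there, a pooled ratio of 1.72 (0.722 to 3.53), so that a difference from Alyref was not detectable at this depth. The ratio was 2.6, 2.8 and 2.4 in Chtop 1, 2 and 3 and 8.6, 2.0 and 2.8 in Nxf1 1, 2 and 3, with 3 tags at the base in Nxf1 1. The excess was therefore not particular to Alyref. The base before the start was looked at after the data were seen. GAS5 carried its recurrent Alyref base 1 position further, on the first base of exon 1.

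A few genes held nearly the same number of tags in every Alyref library although Alyref 2 and 3 held 8.95 and 8.17 times the gene tags of Alyref 1. Of 136 genes with at least 30 tags in Alyref 1, 8 had under 2 times as many in Alyref 2 and in Alyref 3, where the median gene had 7.49 and 6.49 times as many. They were RNA5-8SP2, RNA5-8SP3, RNA5-8SP5, RNA5-8SP6, RNU2-59P, RNU2-61P, VTRNA1-2 and PDE3A, a phosphodiesterase gene with 96.9% of its Alyref tags in one stretch of 200 nt. RNA5-8SP3 held 52, 53 and 53 Alyref tags and 13, 50 and 49 Control tags on 46 bases. Together the 8 took 0.790%, 0.120% and 0.138% of Alyref gene tags and 2.25%, 1.19% and 1.80% of Control gene tags. Their part in the lower calls was not tested.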
